A study of Mus musculus with 12 samples.

Results

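Mitosis and the G2 phase before it are run by a set of genes that cells which do not divide keep low. A list of 53 such genes was followed in mouse regulatory T cells (Treg), out of 41457 genes with a row in every library. The members were chosen by name for their known part in G2 and mitosis. The rule used no value of these libraries, but earlier results of these data were known when the members were chosen. Each of the 53 names was found in the gene tables. They span the kinase CDK1 with its cyclins and activators, transcription factors of G2/M genes, entry kinases, the chromosomal passenger complex, the spindle checkpoint, the ubiquitin system of mitotic exit, kinetochore proteins, spindle motors, cytokinesis factors and chromosome structure. The 2 questions asked of them were how far they responded to T cell receptor stimulation, and whether they differed in Treg that lack CD18.

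Treg are CD4+ T cells that carry the transcription factor Foxp3 and restrain other immune cells. Splenic T cells mostly rest outside the cycle, and stimulation through CD3 and CD28 together with IL-2 brings them into growth and then division. Within a cycle, the G2/M genes are switched on late: complexes built on MuvB proteins hold them off in resting cells and, joined by B-Myb (Mybl2) and FoxM1, switch them on after DNA replication. The best-known DNA elements of these promoters are the cell cycle genes homology region (CHR), bound by MuvB complexes, and CCAAT boxes, bound by NF-Y. Cyclin B with CDK1 then drives entry into mitosis, and the anaphase-promoting complex ends it by having cyclin B and securin destroyed.

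Poly(A) RNA was sequenced in 12 libraries, 3 for each of 4 groups. CD18Foxp3 mice carried floxed CD18 (CD18 fl/fl, the gene Itgb2, which encodes the β chain shared by the β2 integrins) and Cre under control of the Foxp3 locus, so that the gene is deleted in cells that express Foxp3, and a red fluorescent reporter in the ROSA26 locus marked cells with Cre activity. The CD18wt controls were littermates with CD18 wt/wt that carried the same Cre and reporter. CD4+ T cells positive for the reporter were sorted from spleen and kept overnight with recombinant human IL-2 at 5 U/ml, either alone (unstimulated) or with agonistic anti-CD3 at 1 µg/ml and anti-CD28 at 2 µg/ml (stimulated). The age of the animals was not given in the sources used here, and nothing states whether the 2 cultures of 1 replicate number came from 1 mouse. Within a genotype the deposited data of such cultures share a further number, which may or may not stand for an animal. The libraries are labelled as biological replicates. In such bulk RNA, a rise can come from more cells in G2 or mitosis or from more RNA per cell, and the 2 cannot be told apart.

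The libraries held 10665174 to 19005482 exon reads, of which 17417 to 70986 fell on the members. Levels are given as TPM, total exon reads scaled by exon length and library size, and fold changes come from edgeR's quasi-likelihood test on the exon reads scaled by TMM. A gene was called when its fold change reached 1.5 and its Benjamini-Hochberg adjusted p over all genes tested was at most 0.01. Itgb2 itself stood at 465, 431 and 387 TPM in unstimulated CD18wt Treg and at 229, 257 and 234 TPM in CD18Foxp3 Treg (log2 fold change -0.85, adjusted p = 0.00408, edgeR). In stimulated Treg it stood at 331, 329 and 330 TPM against 131, 202 and 183 TPM (log2 fold change -0.94, adjusted p = 0.216, edgeR), again with no overlap of the libraries. The deletion takes out exon 3, so reads from other exons can remain. Foxp3 ranged from 73.4 to 208 TPM over all libraries and Cd3e from 251 to 408 TPM. Cd4 ranged from 279 to 657 TPM and was called lower on stimulation in both genotypes (log2 fold changes of -1.15 and -1.25). Il2ra was called higher in both (2.27 and 3.13). Of the markers of other cells, the B cell gene Ms4a1 was at most at 0.557 TPM, Adgre1 at most at 0.167 TPM, and Ncr1 at 0 in all 12. Other cytotoxic and myeloid markers were expressed. Cd8b1 held 12.45 to 30.39 TPM over all libraries, Prf1 0.809 to 18.3 TPM and the myeloid gene Lyz2 0 to 15.6 TPM. Gzma reached 8.31 TPM and Klrb1c 5.32 TPM. Other B cell genes moved against the members: Cd79b held 21.6 to 29.2 TPM in unstimulated and 8.17 to 17.9 TPM in stimulated libraries, and Cd22 4.14 to 10.04 TPM and 0.282 to 1.54 TPM, and both were called lower on stimulation in both genotypes (log2 fold changes of -1.48 and -1.81 for Cd79b and -3.43 and -3.02 for Cd22). Cd79a ranged from 0.217 to 1.84 TPM over all libraries. Summed over whole marker lists, the 6 cytotoxic lymphocyte markers held 33.2 to 55.4 TPM in unstimulated libraries and 13.5 to 28.9 TPM in stimulated ones, and the 7 erythroid markers 2.47 to 58.2 TPM and 0.234 to 4.88 TPM. The 7 myeloid markers had 5.69 to 19.7 TPM and 5.87 to 10.8 TPM, and the 5 plasma cell markers 69.8 to 88.6 TPM and 145 to 203 TPM. Most of the plasma cell sum came from Xbp1 and Prdm1, which activated T cells also express. On the same list Sdc1 rose from 0 to 0.711 TPM in unstimulated libraries to 1.22 to 3.38 TPM in stimulated ones. Jchain went the other way, from 0.390 to 4.76 TPM to at most 0.722 TPM, and Mzb1 was at most at 1.04 TPM. The part of these other cells in the results was not tested.

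The promoters are shown before the values because the members share DNA elements that no step of their choice used. A RefSeq table of promoters (GRCm38.p6, 250 bases before to 50 after each transcription start) held 43 of the 53 members. It was searched on both strands for CCAAT and for the cell cycle element CHR, which was taken as the letters TTTGAA or, in its other form, as the letters TTCGAA. The latter form reads the same on both strands and was counted once. Over the members, 1 CHR match and 1 CCAAT match shared a base. The promoters of 8 members follow, each from 120 bases before to 30 after the start, 5′ to 3′ on the gene's strand, with CHR and CCAAT matches in capitals on whichever strand they lie, so that a match on the other strand appears as its reverse complement. Cdk1, Ccnb2, Cdc20, Kif23 and Hmmr hold both motifs close to the start, Mybl2 holds neither, and Cenpa and Cdc25b hold both although neither was called higher on stimulation.
Cdk1 (chr10:69352883-69353032, minus strand): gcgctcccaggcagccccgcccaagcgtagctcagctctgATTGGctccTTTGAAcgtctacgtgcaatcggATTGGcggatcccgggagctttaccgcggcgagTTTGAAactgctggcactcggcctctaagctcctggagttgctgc
Ccnb2 (chr9:70421525-70421674, minus strand): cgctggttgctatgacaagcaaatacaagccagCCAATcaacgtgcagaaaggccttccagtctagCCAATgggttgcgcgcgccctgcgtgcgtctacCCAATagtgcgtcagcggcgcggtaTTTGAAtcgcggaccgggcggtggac
Cdc20 (chr4:118437314-118437463, minus strand): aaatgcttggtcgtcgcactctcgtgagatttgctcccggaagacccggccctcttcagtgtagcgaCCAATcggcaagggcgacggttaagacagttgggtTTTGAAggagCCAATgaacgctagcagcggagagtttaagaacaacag
Kif23 (chr9:61946770-61946919, minus strand): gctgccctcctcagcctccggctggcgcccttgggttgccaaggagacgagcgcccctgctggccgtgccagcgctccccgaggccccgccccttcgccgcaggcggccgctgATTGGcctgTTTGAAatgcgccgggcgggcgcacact
Hmmr (chr11:40733408-40733557, minus strand): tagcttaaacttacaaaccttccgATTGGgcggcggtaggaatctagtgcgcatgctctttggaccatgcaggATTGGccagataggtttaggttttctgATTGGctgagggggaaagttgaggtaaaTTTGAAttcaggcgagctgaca
Mybl2 (chr2:163054515-163054664, plus strand): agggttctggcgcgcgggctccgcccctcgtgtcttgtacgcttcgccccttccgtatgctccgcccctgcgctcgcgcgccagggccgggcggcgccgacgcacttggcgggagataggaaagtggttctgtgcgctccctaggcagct
Cenpa (chr5:30666766-30666915, plus strand): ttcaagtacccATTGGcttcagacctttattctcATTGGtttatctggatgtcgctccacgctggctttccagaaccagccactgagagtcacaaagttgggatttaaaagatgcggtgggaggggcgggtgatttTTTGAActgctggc
Cdc25b (chr2:131186828-131186977, plus strand): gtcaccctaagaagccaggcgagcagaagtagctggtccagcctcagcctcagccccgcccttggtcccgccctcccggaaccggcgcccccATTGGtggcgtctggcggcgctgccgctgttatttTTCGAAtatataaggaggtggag

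A CHR stood in 32 of 43 members (74.4%) and in 21.7% of the 27025 promoters in the table. A CCAAT box was found in 74.4% of members and in 41.1% of all promoters, and both motifs in 29 members (67.4%) and 9.65% of all promoters. Pairs or larger groups of CCAAT boxes, 2 or more, stood in 51.2% of members and 13.3% of all promoters. The CHR lay close to the start: 29 members (67.4%) and 6.12% of all promoters had a match whose first base was within 50 bases of it, a window chosen after the positions were seen. The 47 CHR matches had a median position 14 bases before the start. Of these, 10 lay on the other strand only. The remaining 37 lay on the gene's strand or were of the form TTCGAA, which reads the same on both. The 81 CCAAT boxes had a median position 71 bases before the start, and 44 lay on the gene's strand. These are matches of letters and not shown to be bound sites. Birc5, Mad2l1, Mybl2, Ncaph, Nuf2, Nusap1, Pttg1 and Tacc3 held neither motif in the window.

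**Figure D1:**
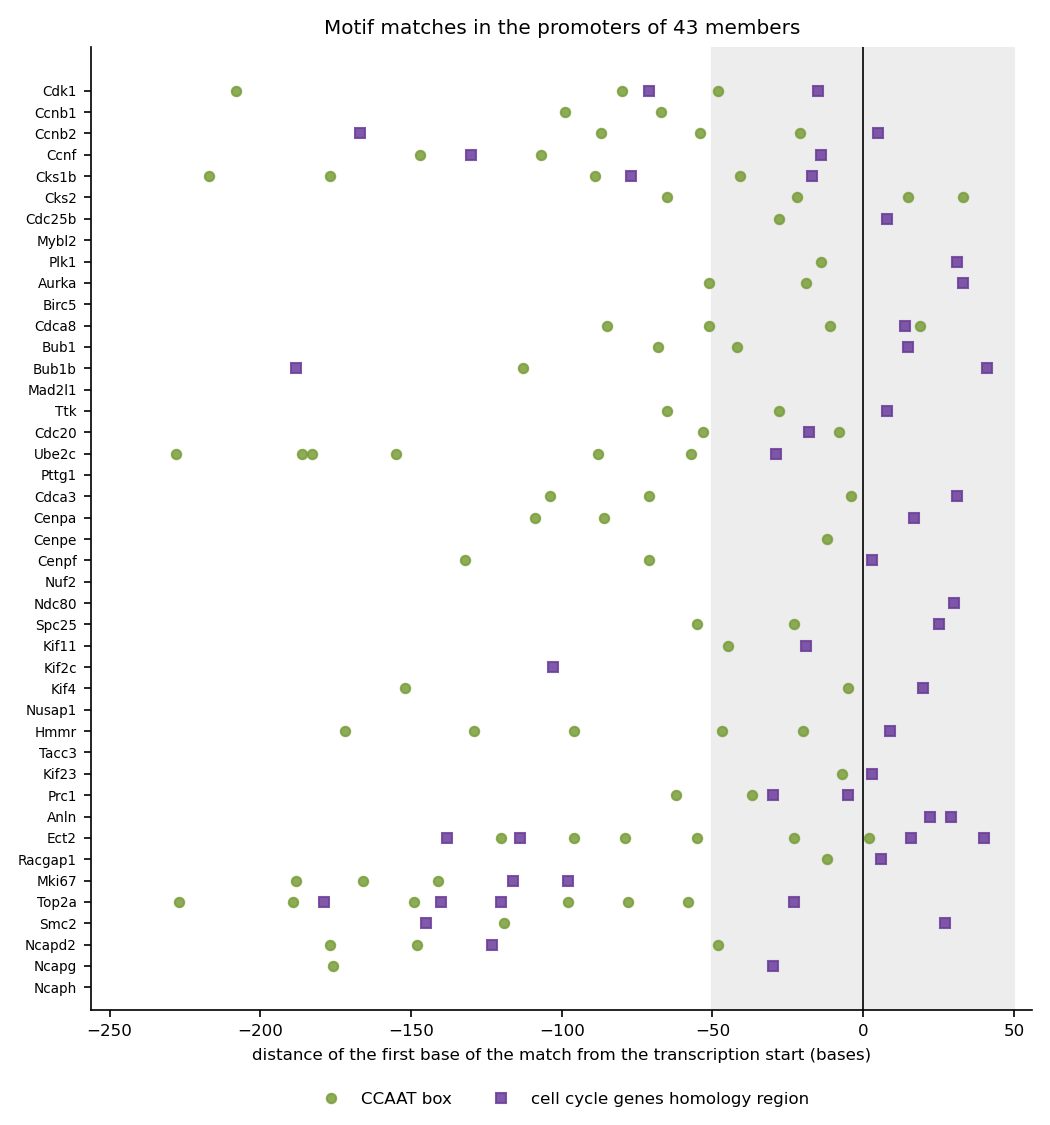
Positions of CHR (squares) and CCAAT (circles) matches in the promoters of 43 members, by distance in bases of the first base of each match from the transcription start, with the 50 bases on each side of the start shaded. CHR matches gather in the shaded band, and CCAAT boxes mostly lie before it or within its left part.

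The members as a whole rose on stimulation in both genotypes. In CD18wt Treg, 46 of 53 members were called higher and 1 was called lower, where 18.7% of the 11930 genes tested were called higher and 14.9% lower. The median log2 fold change was 2.77 over the members and 0.02 over all genes. In CD18Foxp3 Treg, 47 members were called higher and 1 lower, where 20.9% of 12019 genes were called higher and 17.6% lower, and the members' median was 2.87 beside 0.01 over all genes. In both genotypes 45 members were called higher. Racgap1 was called higher only in the CD18wt test, and Cdc25c and Stmn1 only in the CD18Foxp3 test, a difference in calls that the interaction test below did not show. Ccnb2, Cdc25b, Cenpa, Pttg1 and Smc4 were called higher in neither. Without stimulated CD18Foxp3 replicate 1, 10 of the 47 calls in that genotype were lost (Ccna2, Aurkb, Birc5, Ube2c, Cenpf, Kif2c, Tpx2, Nusap1, Tacc3 and Stmn1), with log2 fold changes still between 2.02 and 3.79 and adjusted p of 0.0102 to 0.0353 (edgeR).

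**Figure D2:**
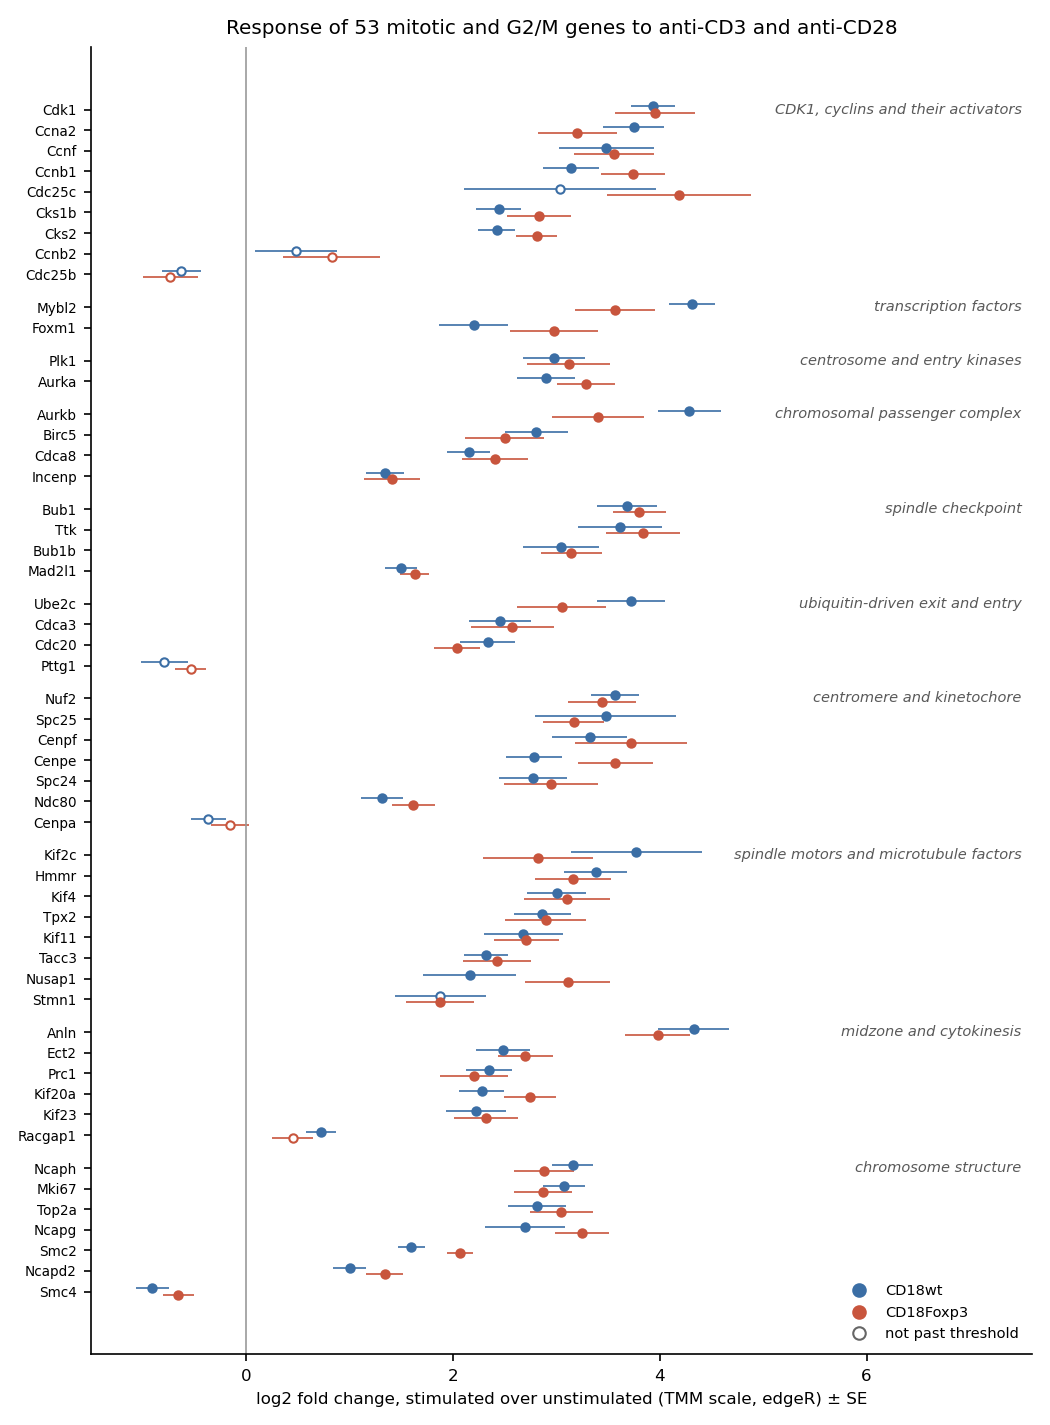
Log2 fold change (stimulated over unstimulated, TMM scale) of each of the 53 members with its standard error, grouped by role, in CD18wt (blue) and CD18Foxp3 Treg (red); open symbols did not pass the threshold. Most members lie above 1 in both genotypes, while Smc4, Pttg1, Cdc25b and Cenpa lie below 0.

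The summed level of the members shows the size of the shift and how much 1 gene weighs in it. The sum was 838, 787 and 996 TPM in unstimulated CD18wt Treg and 835, 807 and 1097 TPM in unstimulated CD18Foxp3 Treg. It was 2599, 2269 and 2350 TPM in stimulated CD18wt Treg and 2790, 2770 and 3499 TPM in stimulated CD18Foxp3 Treg. Every stimulated library stood above every unstimulated one. Smc4 alone made up 34.5% to 55.03% of the sum in unstimulated libraries and 7.97% to 15.6% in stimulated ones. Without Smc4 the sums were 427 ± 95.6 TPM (SD, n = 3) in unstimulated and 2088 ± 136 TPM in stimulated CD18wt Treg, and 511 ± 180 TPM and 2692 ± 458 TPM in CD18Foxp3 Treg. On the log2 scale the stimulated sum was 1.47 higher in CD18wt and 1.73 higher in CD18Foxp3 Treg with Smc4, and 2.31 and 2.44 higher without it. Counted instead as CPM after TMM scaling, which does not divide by gene length, the differences were 0.90 and 1.23.

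**Figure D3:**
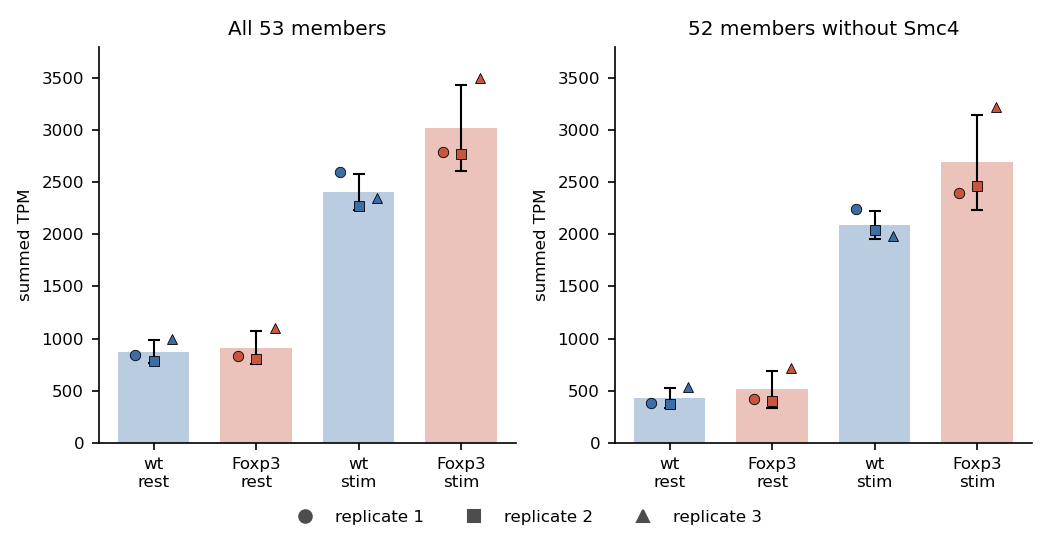
Summed TPM per library of all 53 members (left) and of 52 members without Smc4 (right) in the 4 groups; bars are means of 3 libraries, whiskers SD, and symbols mark the replicate number. Stimulated libraries stand at 2269 TPM or more and unstimulated ones at 1097 TPM or less, and replicate 3 of CD18Foxp3 is the highest of its group in both cultures.

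The members that stood highest at rest had the smallest fold changes, while the order among the lower ones depended on the scaling. In unstimulated CD18wt Treg the median member had 3.14 TPM, 8 members were under 1 TPM and 7 had 20 TPM or more. The 8 lowest members had a median log2 fold change of 3.55 on stimulation on the TMM scale, the 29 members from 1 to under 5 TPM one of 2.86, the 9 from 5 to under 20 TPM one of 1.59, and the 7 highest one of 1.00. These 7 were Cks2, Cdc25b, Incenp, Pttg1, Stmn1, Smc4 and Ncapd2, of which 3 were called higher. In CD18Foxp3 Treg the same bins held 4, 27, 15 and 7 members with medians of 3.91, 3.11, 2.50 and -0.16. On the log2(TPM + 1) scale, which lowers the change of low genes, the medians from the lowest to the highest bin were 2.62, 2.93, 1.94 and 1.37 in CD18wt and 2.73, 3.04, 2.79 and 0.17 in CD18Foxp3 Treg, so the lowest bin no longer led. The level at rest enters both quantities, so this order is a description only. After stimulation the median member stood at 26.2 TPM in CD18wt and 38.3 TPM in CD18Foxp3 Treg, and none was under 1 TPM.

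Cdk1, the kinase whose activity defines entry into mitosis, was among the 5 largest rises in both genotypes on the TMM scale. It stood at 1.63, 1.74 and 2.40 TPM in unstimulated and at 44.4, 35.6 and 35.1 TPM in stimulated CD18wt Treg. CD18Foxp3 Treg went from 1.68, 1.12 and 4.11 TPM to 43.9, 37.3 and 55.4 TPM. The cultures did not overlap, and the log2 fold changes were 3.93 (SE 0.22) and 3.95 (SE 0.39), 15.3-fold and 15.4-fold. Its partners Ccna2 (cyclin A2) and Ccnb1 (cyclin B1) rose with log2 fold changes of 3.75 and 3.14 in CD18wt and 3.20 and 3.74 in CD18Foxp3 Treg, but 90.1% of Ccna2 reads were placed uniquely and its exons overlap those of Exosc9 on the other strand. Ccnf, a cyclin that serves as an F-box protein, and the CDK-binding subunits Cks1b and Cks2 also rose in both, Cks2 to 205, 227 and 228 TPM and to 358, 251 and 318 TPM.

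Ccnb2, the other B-type cyclin of dividing cells, was called in neither genotype. It held 8.86, 8.14 and 23.0 TPM at rest and 24.9, 27.1 and 21.3 TPM after stimulation in CD18wt Treg, and 11.1, 10.8 and 37.8 TPM against 28.4, 43.8 and 63.0 TPM in CD18Foxp3 Treg. In each genotype the unstimulated replicate 3 lay among the stimulated values. The log2 fold changes were 0.48 (adjusted p = 0.348) and 0.82 (adjusted p = 0.163, edgeR). Without unstimulated replicate 3 they were 1.17 (adjusted p = 0.00553) in CD18wt and 1.65 (adjusted p = 0.00444, edgeR) in CD18Foxp3 Treg, past the threshold. Leaving out any other library did not pass it. The values were then 0.20 to 0.61 (adjusted p = 0.307 to 0.728, edgeR) in CD18wt Treg. In CD18Foxp3 Treg they were 0.49 to 1.05 (adjusted p = 0.224 to 0.458, edgeR).

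The CDC25 phosphatases, which remove the inhibitory phosphates from CDK1, went apart. Cdc25b held 65.8, 54.1 and 59.0 TPM at rest and 71.1, 37.7 and 45.5 TPM after stimulation in CD18wt Treg. CD18Foxp3 Treg held 63.8, 64.6 and 104 TPM and then 37.9, 59.5 and 81.5 TPM. The groups overlapped, and the log2 fold changes of -0.63 and -0.74 missed the threshold (adjusted p = 0.0158 and 0.0389, edgeR), though DESeq2's Wald test called it lower in both. Cdc25c was nearly absent at rest, with 0, 3 and 11 exon reads in CD18wt and 0, 3 and 10 in CD18Foxp3 libraries, where 0 reads still allow up to 3. Stimulated libraries held 33, 76 and 47 reads (4.41, 6.82 and 4.70 TPM) and 98, 83 and 97 reads (7.97, 7.69 and 9.76 TPM). Its log2 fold change was 3.03 (SE 0.93, adjusted p = 0.0167) in CD18wt and 4.18 (SE 0.70, adjusted p = 0.000798, edgeR) in CD18Foxp3 Treg, where it was the largest rise of any member on the TMM scale, though on the log2(TPM + 1) scale it had 2.83 and Cdk1 3.90. Its exons overlap those of Gm3550 on the other strand, and the fitted fold of a gene at 0 in 1 library depends on the prior count.

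Both transcription factors of the G2/M program rose. Mybl2 (B-Myb) stood at 0.919, 1.12 and 0.957 TPM in unstimulated and 23.6, 26.9 and 28.0 TPM in stimulated CD18wt Treg, a log2 fold change of 4.31 (SE 0.22). In CD18Foxp3 Treg it went from 1.39, 1.46 and 2.85 TPM to 15.3, 32.8 and 39.0 TPM, a log2 fold change of 3.56 (SE 0.39), with stimulated replicate 1 well under the other two. Foxm1 rose less, from 1.86, 1.26 and 3.47 TPM to 14.3, 12.4 and 12.8 TPM in CD18wt and from 1.66, 0.694 and 2.88 TPM to 13.7, 14.4 and 24.8 TPM in CD18Foxp3 Treg. Its log2 fold changes were 2.199 (SE 0.33) and 2.98 (SE 0.42). The MuvB core and its other partners were mostly not called. Of the 12 genes on a list of MuvB and DREAM components that includes Mybl2, 3 were called higher and 1 lower in CD18wt Treg, with a median log2 fold change of 0.08. Besides Mybl2, the DP1 subunit Tfdp1 rose in both genotypes (2.07 and 2.08), and Rbl2, the p130 pocket protein of resting cells, was called lower in CD18wt (-1.21) and had -0.88 with adjusted p = 0.0165 (edgeR) in CD18Foxp3 Treg.

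The entry kinases Plk1 and Aurka, which mature the centrosomes and activate CDK1, rose in both genotypes. Plk1 went from 3.30, 3.78 and 6.27 TPM to 50.03, 50.5 and 35.1 TPM in CD18wt Treg and from 3.44, 4.26 and 9.58 TPM to 40.4, 62.6 and 89.2 TPM in CD18Foxp3 Treg, log2 fold changes of 2.97 (SE 0.30) and 3.12 (SE 0.40). Aurka had 2.90 and 3.28. All 4 members of the chromosomal passenger complex, which corrects faulty attachments of chromosomes to the spindle, were called higher in both genotypes. Its kinase Aurkb went from 1.34, 1.91 and 3.26 TPM to 61.4, 55.2 and 45.1 TPM in CD18wt Treg, a 19.5-fold rise (log2 4.28, SE 0.30). The values in CD18Foxp3 Treg were 2.47, 2.06 and 7.97 TPM at rest and 43.6, 51.7 and 73.3 TPM after stimulation (log2 3.40, SE 0.45). The scaffold Incenp was already at 18.7 to 27.5 TPM at rest over both genotypes and rose by 1.34 and 1.41 on the log2 scale. The subunits Birc5 (survivin, 2.81 and 2.50) and Cdca8 (borealin, 2.15 and 2.40), which bring the kinase to the centromere, lay between them in CD18wt Treg, and Cdca8 shares 232 exon bases with 9930104L06Rik on the other strand.

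The spindle checkpoint, which holds anaphase until every chromosome is attached, was represented by Bub1, Bub1b, Mad2l1 and Ttk, and all 4 were called higher in both genotypes. Bub1b (BubR1) went from 2.10, 3.64 and 6.45 TPM to 42.3, 44.9 and 42.9 TPM in CD18wt Treg and from 4.16, 2.72 and 6.24 TPM to 36.1, 50.3 and 63.2 TPM in CD18Foxp3 Treg. The kinase Bub1 reached 17.6, 14.1 and 20.4 TPM from 1.12, 0.682 and 1.30 TPM in CD18wt Treg, and 25.4, 23.2 and 29.6 TPM from 1.22, 1.04 and 2.10 TPM in CD18Foxp3 Treg (log2 3.68 and 3.80). Ttk (Mps1), the kinase at the head of the checkpoint, went from 0.256, 0.453 and 0.751 TPM to 6.22, 7.47 and 9.19 TPM in CD18wt Treg and from 0.456, 0.353 and 0.915 TPM to 8.60, 9.07 and 14.2 TPM in CD18Foxp3 Treg (log2 3.61 and 3.84). Mad2l1, the inhibitor that the checkpoint produces, rose least of the 4, by 1.495 and 1.63.

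Of the ubiquitin genes, the activator Cdc20 and the conjugating enzyme Ube2c of the anaphase-promoting complex rose, and its substrate securin (Pttg1) did not. Cdc20 went from 7.68, 10.4 and 13.4 TPM to 73.6, 80.5 and 52.95 TPM in CD18wt Treg and from 13.8, 11.7 and 19.8 TPM to 59.8, 85.1 and 94.9 TPM in CD18Foxp3 Treg (log2 2.33 and 2.04); it shares 53 exon bases with Elovl1 on the other strand. Ube2c had 3.72 and 3.05, and Cdca3, an F-box-like factor that promotes mitotic entry, had 2.45 and 2.57. Pttg1 held 35.6, 34.8 and 53.9 TPM at rest and 38.3, 23.4 and 34.5 TPM after stimulation in CD18wt Treg, and 38.1, 45.9 and 46.2 TPM and then 43.1, 34.9 and 36.9 TPM in CD18Foxp3 Treg. The groups overlapped, and its log2 fold changes of -0.79 (adjusted p = 0.0114) and -0.54 (adjusted p = 0.0131, edgeR) lay just outside the threshold. For the complex itself, of 16 subunits and regulators on a separate list, 5 were called higher and 2 lower in CD18wt Treg, with a median of 0.23, and 6 higher and 3 lower in CD18Foxp3 Treg, with a median of 0.39. The largest rise on that list was Fbxo5 (Emi1, an inhibitor of the complex), at 1.78 and 1.80, ahead of Anapc15 (1.03 and 1.22) and Cdc27 (0.94 and 0.90).

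At the centromere, 6 of 7 members were called higher in each genotype, and the exception was Cenpa, the histone H3 variant that marks the centromere. Cenpa held 21.9, 15.3 and 16.8 TPM at rest and 18.02, 18.8 and 18.2 TPM after stimulation in CD18wt Treg, and 19.6, 19.0 and 23.9 TPM and then 18.4, 22.5 and 31.2 TPM in CD18Foxp3 Treg. Its log2 fold changes were -0.37 and -0.16 on the TMM scale and 0.04 and 0.17 on the log2(TPM + 1) scale, so its direction depended on the scaling. The kinesin Cenpe, which moves chromosomes to the spindle equator, went from 1.08, 0.878 and 1.51 TPM to 10.0, 7.96 and 13.5 TPM in CD18wt Treg. CD18Foxp3 Treg went from 0.667, 0.745 and 2.05 TPM to 16.1, 17.1 and 19.3 TPM. Its log2 fold changes were 2.78 (SE 0.27) and 3.57 (SE 0.36). Cenpf, a large coiled-coil protein of the outer kinetochore, rose by 3.32 and 3.72. In the NDC80 complex, which grips microtubules, Nuf2 (3.57 and 3.44), Spc25 (3.47 and 3.16) and Spc24 (2.77 and 2.95) had larger fold changes than Ndc80 itself (1.31 and 1.61).

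All 8 spindle motors and microtubule factors were called higher in CD18Foxp3 Treg and 7 in CD18wt Treg. Kif11 (Eg5), the motor that pushes the spindle poles apart, went from 3.24, 3.45 and 8.28 TPM to 48.1, 36.5 and 41.0 TPM in CD18wt Treg and from 4.30, 4.86 and 11.04 TPM to 55.3, 49.8 and 63.6 TPM in CD18Foxp3 Treg (log2 2.68 and 2.71). Kif2c (MCAK), which takes microtubules apart at the centromere, went from 0.398, 0.374 and 1.92 TPM to 20.5, 13.9 and 10.98 TPM in CD18wt Treg, a log2 fold change of 3.77 with an SE of 0.64. CD18Foxp3 Treg went from 1.45, 0.557 and 4.02 TPM to 14.3, 14.7 and 25.6 TPM (log2 2.82, SE 0.54). The chromokinesin Kif4 (3.0 and 3.10), the Aurora A activator Tpx2 (2.86 and 2.89), the spindle protein Nusap1 (2.16 and 3.11), the spindle stabiliser Tacc3 (2.32 and 2.42) and the spindle pole protein Hmmr (3.38 and 3.16) all rose, Kif4, Nusap1 and Tacc3 with exons that overlap a gene on the other strand. Stmn1 (stathmin), a microtubule destabiliser, held 37.2, 33.4 and 88.8 TPM at rest in CD18wt Treg and 278, 254 and 247 TPM after stimulation. The cultures did not overlap, yet the adjusted p was 0.0154 (edgeR), outside the threshold; in CD18Foxp3 Treg it rose from 44.2, 41.1 and 103 TPM to 219, 293 and 368 TPM (log2 1.87, adjusted p = 0.00112, edgeR).

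Cytokinesis held the lowest member. Anln (anillin), the scaffold of the contractile ring, had 11, 8 and 7 exon reads at rest in CD18wt Treg (0.191, 0.131 and 0.190 TPM) and 185, 208 and 199 reads after stimulation (5.30, 3.999 and 4.26 TPM). CD18Foxp3 libraries had 10, 18 and 25 reads (0.155, 0.345 and 0.443 TPM) and then 373, 299 and 301 reads (6.497, 5.94 and 6.49 TPM). Its log2 fold changes of 4.32 (SE 0.35) and 3.98 (SE 0.32) were, on the TMM scale, the largest of any member in CD18wt Treg, by less than its SE over Mybl2 and Aurkb, and the next to Cdc25c in CD18Foxp3 Treg. On the log2(TPM + 1) scale Anln had 2.23 and 2.48, under Aurkb with 4.15 and 3.61. At rest 25 of its 51 gene reads over the 3 CD18wt libraries and 25 of 78 over the CD18Foxp3 ones lay in introns, and 8.501% and 7.68% after stimulation. The kinesin Kif23 (MKLP1) of the central spindle went from 1.54, 1.35 and 1.81 TPM to 13.9, 5.91 and 9.48 TPM in CD18wt Treg and from 1.95, 1.56 and 3.36 TPM to 12.2, 11.5 and 20.2 TPM in CD18Foxp3 Treg (log2 2.22 and 2.32). Racgap1, its partner in the centralspindlin complex, started at 10.3 to 11.8 TPM and reached 22.2 to 26.4 TPM in CD18wt Treg (log2 0.72, adjusted p = 0.00118, edgeR). In CD18Foxp3 Treg it held 15.0, 13.5 and 19.7 TPM and then 23.8, 23.7 and 36.8 TPM, with a log2 fold change of 0.45 and adjusted p = 0.0829 (edgeR). The RhoA activator Ect2, which starts the cleavage furrow, rose by 2.48 and 2.70. The midzone kinesin Kif20a (2.27 and 2.74) and the microtubule crosslinker Prc1 (2.35 and 2.203) rose as well, but only 77.7% and 82.0% of their reads were placed uniquely, and both overlap a gene on the other strand.

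Among the genes of chromosome structure, Mki67, the proliferation marker Ki-67 that coats mitotic chromosomes, went from 4.03, 3.85 and 5.36 TPM to 54.3, 34.7 and 59.3 TPM in CD18wt Treg. In CD18Foxp3 Treg it went from 6.34, 5.62 and 12.8 TPM to 67.9, 74.9 and 88.6 TPM, and the log2 fold changes were 3.07 (SE 0.20) and 2.87 (SE 0.28). Top2a, the topoisomerase that untangles sister chromatids, rose by 2.81 and 3.04. The condensin subunits divided. Ncapg and Ncaph, the subunits of condensin I with Ncapd2, rose by 2.69 and 3.15 in CD18wt and by 3.24 and 2.87 in CD18Foxp3 Treg. For Ncapg, 92.3% of reads were placed uniquely, and it shares 944 exon bases with Lcorl on the other strand. Ncapd2 rose by 1.00 and 1.34, and the ATPase Smc2, which belongs to both condensins, by 1.59 and 2.07. Its partner ATPase Smc4 (chromosome 3, 69004738 to 69034623 of GRCm38) was the 1 member called lower.

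Smc4 was also the member with the highest mean level in every group, by a wide margin at rest but less so after stimulation. In stimulated CD18Foxp3 Treg, Cks2 (309 TPM) and Stmn1 (293 TPM) came near its 327 TPM and stood above it in replicate 3. In stimulated CD18wt replicate 2, Stmn1 (254 TPM) stood above Smc4 (230 TPM). Smc4 held 461, 420 and 458 TPM at rest and 356, 230 and 366 TPM after stimulation in CD18wt Treg, with no overlap of the cultures. In CD18Foxp3 Treg it held 419, 409 and 379 TPM and then 396, 306 and 279 TPM, where the highest stimulated library lay above the lowest unstimulated one. On the TMM scale its log2 fold changes were -0.91 (SE 0.16, adjusted p = 0.000413) and -0.66 (SE 0.15, adjusted p = 0.0047, edgeR). Smc2, with which it pairs in condensin, stood at 17.4 to 20.3 TPM at rest over both genotypes and 66.7 to 108 TPM after stimulation. The calls of Smc4 depended on the fit: limma on log2(TPM + 1), a scale on which the median gene moved by 0.36 in CD18wt and 0.31 in CD18Foxp3 Treg against 0.02 and 0.01 under TMM, gave -0.52 and -0.31 and called neither. In CD18Foxp3 Treg the call was also lost when any 1 of 5 of the 6 libraries was left out (adjusted p = 0.0108 to 0.0235, edgeR). Mir15b and Mir16-2 lie in introns of Smc4. Of its reads, 4.94% and 5.72% at rest and 4.37% and 3.504% after stimulation lay in introns.

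**Figure D4:**
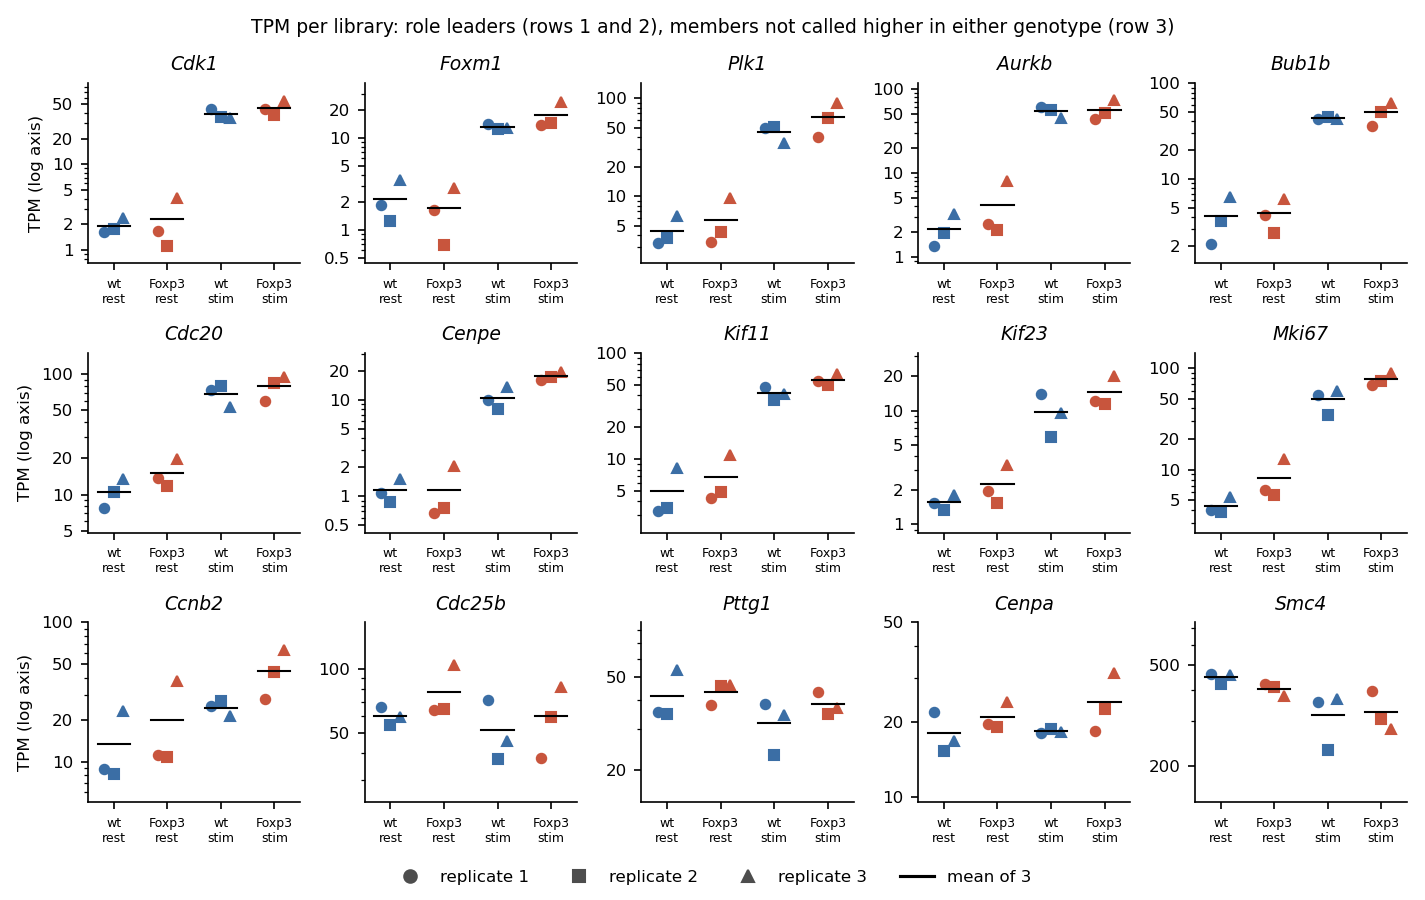
TPM in each of the 12 libraries (log axis, own range per gene) for 10 members, 1 from each role (rows 1 and 2), and for the 5 members called higher in neither genotype (row 3); symbols mark the replicate number and lines the mean of 3. The stimulated libraries lie above the unstimulated ones for all 10 in the upper rows and overlap them for Ccnb2, Cdc25b, Pttg1 and Cenpa. For Smc4 they overlap in CD18Foxp3 Treg and lie below in CD18wt Treg.

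Mitotic genes outside the list moved the same way, and so did genes of the phase before. Of 48 other mitotic genes, 43 were called higher in CD18wt and 42 in CD18Foxp3 Treg and none lower, with medians of 2.95 and 2.89; the largest in CD18wt Treg were Cenpi (4.25, with 3.52 in CD18Foxp3), Shcbp1 (4.16 and 3.41) and Troap (4.003 and 3.47). Of 36 genes of DNA replication, 35 and 36 were called higher, with medians of 2.19 and 2.18, led by Mcm10 (4.82 and 4.53), Ccne2 (4.59 and 3.41) and Orc1 (4.51 and 5.30). Of 7 genes that hold CDKs in check, 3 were called higher and 2 lower in CD18wt Treg. Among them Cdkn1a (p21) rose by 5.76 and 5.60, and Wee1, the kinase that places the inhibitory phosphate on CDK1, by 2.34 and 2.60, while Cdkn2d (p19) fell by 1.45 and 2.12 on the log2 scale.

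Members with and without a CHR near the start rose by similar medians. Of the 29 members with a CHR within 50 bases of the start, 26 were called higher in CD18wt and 25 in CD18Foxp3 Treg, with median log2 fold changes of 2.69 and 3.04. Of the 14 without one, 13 were called higher in each genotype, with medians of 2.79 and 2.84. Mybl2, with neither motif in the window printed above, was among the largest rises on the TMM scale, and so was Anln with CHR matches and no CCAAT box. Cenpa, Cdc25b and Ccnb2 hold both motifs and were not called, and Pttg1 holds neither and was not called.

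The genotype comparison asks whether the members' levels differed between CD18Foxp3 and CD18wt Treg in either culture. The study reported spontaneous inflammation and enlarged spleens in CD18Foxp3 mice, and these Treg came from spleen. Loss of CD18 in the Treg and the state of the donor mice cannot be told apart in this comparison. No member passed the threshold in unstimulated Treg, in stimulated Treg or in the interaction of genotype and stimulation. Over all genes, 0.135% of 11829 were called in unstimulated Treg, 0% of 11930 in stimulated Treg and 0% of 12636 in the interaction. Unadjusted p under 0.05 was reached by 5 of 52 members tested in unstimulated Treg, 25 of 53 in stimulated Treg and 1 in the interaction, where 9.59%, 4.89% and 3.84% of all genes reached it. DESeq2's Wald test gave 0 member calls in each of the 3, with 8, 27 and 1 members at an unadjusted p under 0.05. Without the filter on low counts edgeR called 1 member in each culture, Mki67 at rest (adjusted p = 0.00613) and Hmmr after stimulation (adjusted p = 0.00413).

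In stimulated Treg all 53 log2 fold changes were above 0, from 0.06 to 0.96 with a median of 0.44, where 49.5% of all genes were above 0 and the median was -0.0029. In 28 members every CD18Foxp3 library stood above every CD18wt library in TPM, as 5.02% of all genes tested did. The largest difference was in Hmmr, a spindle pole protein, with 12.7, 9.18 and 9.43 TPM in CD18wt and 18.1, 17.6 and 24.3 TPM in CD18Foxp3 Treg (log2 0.96, SE 0.21, adjusted p = 0.407, edgeR). Ccnb2 followed with 24.9, 27.1 and 21.3 TPM against 28.4, 43.8 and 63.0 TPM (log2 0.88, adjusted p = 0.813, edgeR), and then Cenpe with 10.0, 7.96 and 13.5 TPM against 16.1, 17.1 and 19.3 TPM (log2 0.77, adjusted p = 0.506, edgeR). Mki67 stood at 54.3, 34.7 and 59.3 TPM in CD18wt and at 67.9, 74.9 and 88.6 TPM in CD18Foxp3 Treg (log2 0.67, SE 0.18, adjusted p = 0.627, edgeR). At the other end, Aurkb (0.06), Smc4 (0.07) and Incenp (0.13) were nearly level. The members share libraries and rise and fall together, so their common direction counts as few observations, not as 53.

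The size of this difference depended on single libraries, most on 1. Replicate 3 of stimulated CD18Foxp3 Treg was the highest of its group for 44 of 53 members, where it was the highest for 29.3% of 12636 genes. Without it 42 members were above 0, 5 had an unadjusted p under 0.05 and the median was 0.30. Leaving out any other library of the comparison kept 52 or 53 members above 0 with medians from 0.35 to 0.55, and the members at an unadjusted p under 0.05 then numbered 9 (without CD18wt replicate 3) to 30. A fit of all 12 libraries gave 11 such members. The summed TPM without replicate 3 was higher in CD18Foxp3 by 0.21 on the log2 scale instead of 0.32. What set that library apart was not tested.

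In unstimulated Treg the members had a median log2 fold change of 0.23, and 44 of 52 were above 0. Here 4 members (Mybl2, Prc1, Racgap1 and Mki67) had every CD18Foxp3 library above every CD18wt library, where 8.74% of all genes did. Racgap1 had 11.8, 10.3 and 10.5 TPM against 15.0, 13.5 and 19.7 TPM (log2 0.53, adjusted p = 0.15, edgeR), and Mki67 had 4.03, 3.85 and 5.36 TPM against 6.34, 5.62 and 12.8 TPM (log2 0.87, adjusted p = 0.431, edgeR). Replicate 3 was again the highest of the CD18Foxp3 group, for 51 of 53 members, where it was the highest for 48.1% of 12636 genes. Replicate 3 of CD18wt was the highest of its group for 41 members and for 27.0% of all genes. That library had the fewest exon reads of the series, 10665174 against 17172999 and 18065610 in replicates 1 and 2. Its intron share over all genes was 3.32%, against 4.81% and 5.02% in those. The part of depth in its values was not tested. Without replicate 3 of CD18Foxp3 the median was -0.12 with 22 members above 0, and without replicate 3 of CD18wt it was 0.61 with 49 above 0. The direction at rest thus turned with 1 library.

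**Figure D5:**
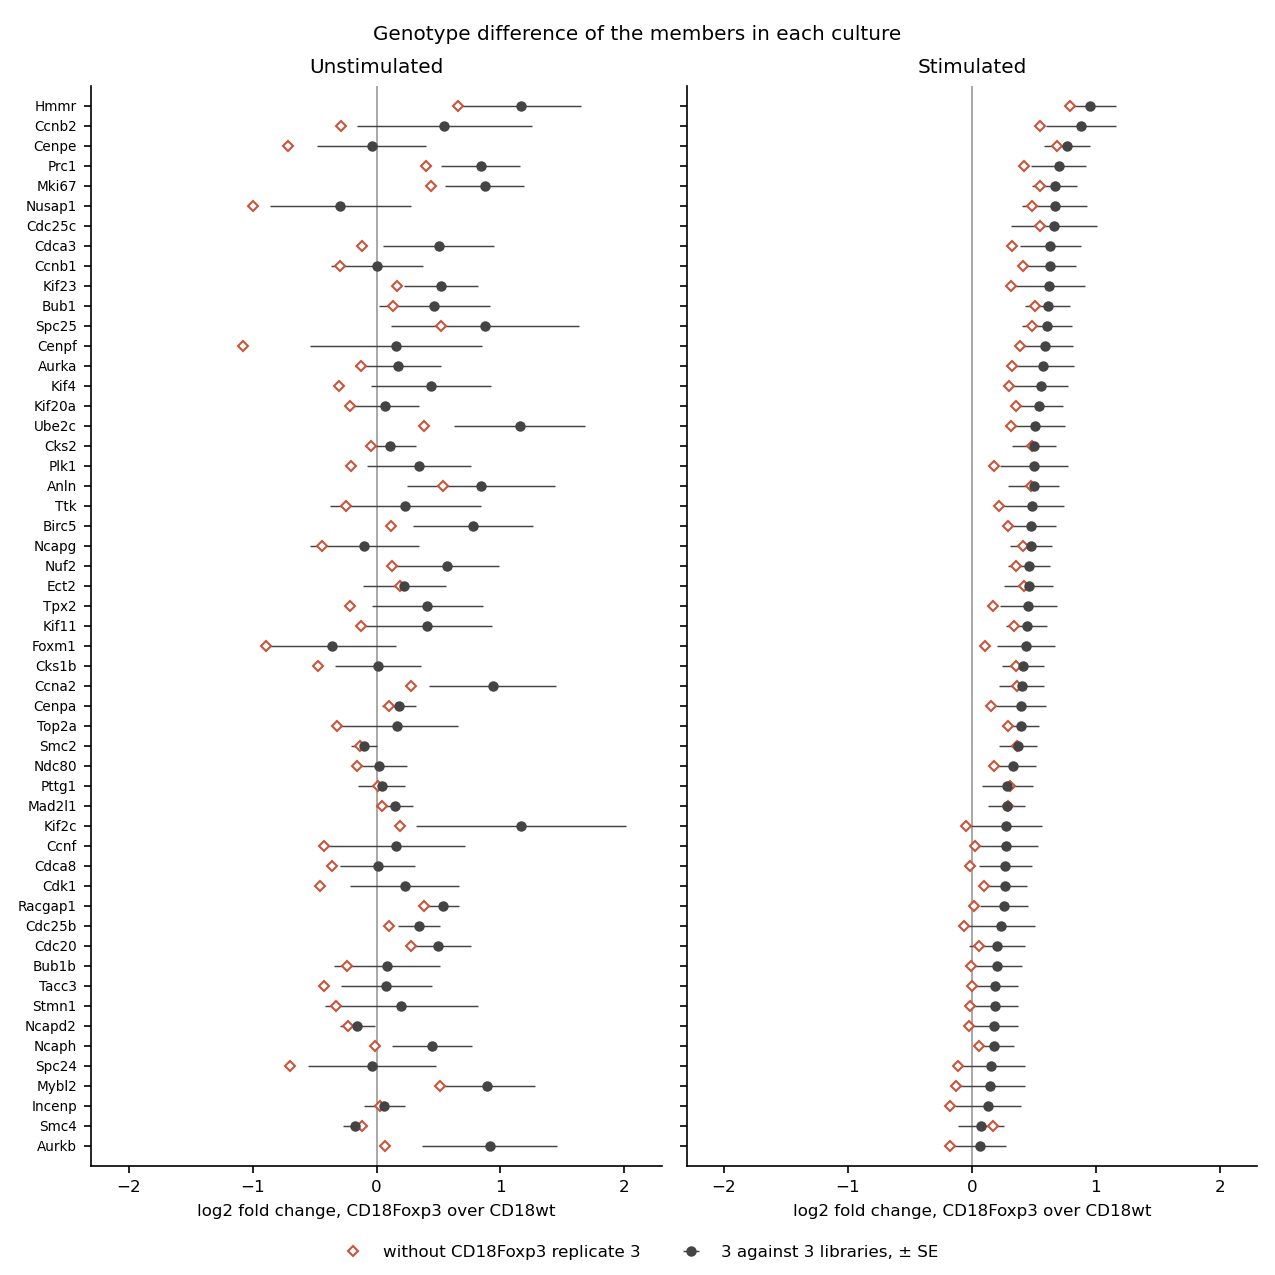
Log2 fold change of CD18Foxp3 over CD18wt for each member in unstimulated (left) and stimulated Treg (right), ordered by the stimulated value, as circles with standard error for 3 against 3 libraries and as open diamonds without CD18Foxp3 replicate 3; Cdc25c was not tested at rest. In stimulated Treg every circle lies above 0 and 42 diamonds do, and in unstimulated Treg 22 diamonds lie above 0.

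The response to stimulation was not shown to differ between the genotypes. The interaction had a median of 0.11 over the members, with 36 of 53 above 0, from -0.97 for Kif2c to 1.11 for Cdc25c, and every adjusted p was 0.987 or more (edgeR). The direction turned with single libraries: the median was -0.16 with 15 above 0 without CD18wt unstimulated replicate 3, -0.10 with 21 without CD18Foxp3 stimulated replicate 3, -0.05 with 22 without CD18Foxp3 unstimulated replicate 2, -0.0039 with 26 without its replicate 1, and 0.48 with 47 without its replicate 3. Smc2 had the smallest unadjusted p, with log2 fold changes of 1.59 in CD18wt and 2.07 in CD18Foxp3 Treg (interaction 0.47, SE 0.17, adjusted p = 0.987, edgeR). Cdk1 had 0.01 (SE 0.50), Aurkb -0.89 (SE 0.65), Mybl2 -0.74 (SE 0.46) and Cenpe 0.78 (SE 0.47). Errors of this size do not show that the genotypes responded alike. The other 48 mitotic genes had 47 values above 0 between the genotypes in stimulated Treg, with a median of 0.35 and 6 at an unadjusted p under 0.05, and the 36 replication genes had 26 above 0, with a median of 0.09 and 1 at an unadjusted p under 0.05. No gene of either list was called.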

How the data were processed

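Total exon, unique exon and intron read counts per gene were deposited for each library. Per the labels and the study's methods, the authors trimmed adapters, aligned reads to GRCm38 and counted them with CLC Genomics Workbench at default settings, without pooling, from a NEBNext Ultra II library kit. The strand of a read is not used, so reads of overlapping genes cannot be told apart. The deposited exon-length column was used to compute TPM from total exon reads, since the deposited TPM column is written with decimal commas.

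Libraries were grouped by the labels (3 per group), which give replicate numbers and no animal, so p-values measure the spread between these libraries. Each comparison was fitted on the 6 libraries of its 2 groups, and the interaction on all 12, with edgeR 4.0.16 (filterByExpr with a count minimum of 10, TMM, robust quasi-likelihood F-test, R 4.3.3), and p-values were adjusted by Benjamini-Hochberg over all genes tested. Calls used the study's own limits, a change of at least 1.5-fold with the adjusted p no higher than 0.01. Standard errors are the log2 fold change over the square root of F. A library's exon read total gives its depth, and a count of 0 allows up to 3 reads, a limit that covers counting error only. Scripts were tested on simulated counts. Alternatives were DESeq2 1.42.0, its size factors, no count filter, unique reads, limma 3.58.1 on log2(TPM + 1), a replicate block, 1 fit over all libraries, a looser limit of 0.05 on the adjusted p, and each library left out in turn.

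Any member could be named. Values per library were given for 1 leader of each role (Cdk1, Foxm1, Plk1, Aurkb, Bub1b, Cdc20, Cenpe, Kif11, Kif23 and Mki67), for the 5 largest rises and falls past the threshold, and for members that depart from the rest. Hmmr, Racgap1, Stmn1, Cks2 and the genotype examples were picked after their values were seen. Outside the list, the 3 genes with the largest change in CD18wt Treg were named for each list of cell cycle genes. The cell type markers named did not all follow this rule. A marker of B cells and the sum of its list are not reported here. The members and all lists were chosen with earlier results of these data known. Promoter sequences came from RefSeq on GRCm38.p6 and gene positions and overlaps from the GENCODE annotation.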

Additional observations from a re-analysis of the deposited data

How the results depend on the processing

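Of 1179 recomputed values, 1099 kept their direction and their side of the threshold (or, for counts and sums, stayed within the limits set for them), 40 changed sign, 23 passed the threshold newly, 11 no longer passed it and 6 moved. The causes were not tested. On stimulation, only Cenpa changed sign: limma on log2(TPM + 1) gave 0.0405 in CD18wt and 0.17 in CD18Foxp3 Treg. Without the filter on low counts, 1 member passed between genotypes in unstimulated Treg (Mki67, 0.88, adjusted p = 0.00613, edgeR) and 1 in stimulated Treg (Hmmr, 0.97, adjusted p = 0.00413, edgeR). The log2 ratio of the summed TPM on stimulation was 2.31 and 2.44 without Smc4 and 0.90 and 1.23 as CPM after TMM in CD18wt and CD18Foxp3 Treg.

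Leaving out 1 library at a time turned the sign of these log2 fold changes, which were followed for the leader of each role only. Other members turned as well. Without CD18Foxp3 replicate 3, 22 of 52 members were above 0 in unstimulated and 42 of 53 in stimulated Treg. Between genotypes in unstimulated Treg the ranges were -0.24 to 0.61 for Bub1b, -0.45 to 0.54 for Cdk1, -0.71 to 0.24 for Cenpe, -0.89 to 0.16 for Foxm1, -0.12 to 1.01 for Kif11 and -0.21 to 0.70 for Plk1. In stimulated Treg they were -0.18 to 0.21 for Aurkb and -0.00813 to 0.38 for Bub1b. For the interaction they were -0.41 to 0.43 for Bub1b, -0.30 to 0.68 for Cdk1, -0.58 to 0.54 for Kif11, -0.22 to 0.44 for Kif23, -0.41 to 0.22 for Mki67 and -0.21 to 0.68 for Plk1. None of these had passed the threshold.

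With the replicate number as a block, 45 members were called higher and 2 lower on stimulation in CD18wt Treg, 48 and 2 in CD18Foxp3 Treg, and 0 between genotypes and for the interaction. The labels do not say what a shared number marks. Deviations of same-numbered libraries from their group means correlated at -0.0945 to 0.147 over the 6 pairs within a genotype. For replicates 1, 2 and 3 they were 0.135, 0.0696 and 0.147 in CD18Foxp3 and 0.0958, -0.0195 and -0.0945 in CD18wt Treg. In all, 8 of 12 libraries correlated best with their own number. This is a hint from the data only, and it did not hold for replicates 2 and 3 of CD18wt.

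The 3 libraries per group and resting levels of a few TPM limit what the genotype comparisons can show.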
